A study of Mus musculus with 22 samples.

Results

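Obp2a and Bmyc are adjacent genes on mouse chromosome 2, with 0 other genes between them in the RefSeq gene order, and both gave a higher signal in Trim24-/- livers than in WT livers in every comparison the study allows. They were chosen by their signal differences from WT, as neighbours among the genes raised in all 3 Trim24-/- groups, and they are 2 of the 18194 genes measured. Each was read by a single probe set, 1428022_at for Obp2a and 1428669_at for Bmyc. Because the comparisons with WT chose these genes, their values there, calls and adjusted p-values included, only describe what the choice fixed. Tests are kept for Trim24-/- Rara+/- against Trim24-/- livers, WT livers of the 2 ages, the spread between mice and the genes around the pair. The livers in the first 2 of these also entered the choice.

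The study measured liver RNA from 22 mice on Affymetrix arrays, with 1 array per mouse. At 5 weeks of age there were 4 Trim24-/- Rara+/- mice, 4 Trim24-/- mice and 4 WT mice, and at 14 weeks there were 5 Trim24-/- mice and 5 WT mice. Trim24 had been inactivated by gene disruption, and the 3 genotypes descended from intercrossed double heterozygotes (Trim24+/- Rara+/-) on a mixed C57BL/6 and 129/Sv background. No Rara+/- mice with intact Trim24 were used here, so the effect of the missing Rara allele is seen only in livers that also lack Trim24.

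Obp2a encodes an odorant-binding lipocalin, also called Lcn13, a small secreted protein of the family that carries hydrophobic molecules in a barrel-shaped pocket. Bmyc encodes a short relative of Myc that resembles the amino-terminal part of Myc and lacks the DNA-binding and dimerisation region. Trim24 is a co-regulator of transcription that reads histone marks and binds nuclear receptors, among them Rara, the retinoic acid receptor alpha.

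The promoters of the pair are shown because the 2 genes lie on the same strand with their start sites only 6805 bases apart, and because their levels moved together. Each sequence runs 5′ to 3′ on the plus strand of the mouse GRCm38.p6 assembly, from 250 bases before the RefSeq start site to 50 bases from it on, and capitals mark matches to the motifs searched. The Obp2a window is chr2:25699824-25700123 and the Bmyc window is chr2:25706629-25706928.
Obp2a promoter: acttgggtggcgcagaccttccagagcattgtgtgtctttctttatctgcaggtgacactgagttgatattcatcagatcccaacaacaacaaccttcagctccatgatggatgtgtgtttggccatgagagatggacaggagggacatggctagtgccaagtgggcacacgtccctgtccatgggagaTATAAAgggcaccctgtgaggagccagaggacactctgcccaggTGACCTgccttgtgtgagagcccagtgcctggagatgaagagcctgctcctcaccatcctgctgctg
Bmyc promoter: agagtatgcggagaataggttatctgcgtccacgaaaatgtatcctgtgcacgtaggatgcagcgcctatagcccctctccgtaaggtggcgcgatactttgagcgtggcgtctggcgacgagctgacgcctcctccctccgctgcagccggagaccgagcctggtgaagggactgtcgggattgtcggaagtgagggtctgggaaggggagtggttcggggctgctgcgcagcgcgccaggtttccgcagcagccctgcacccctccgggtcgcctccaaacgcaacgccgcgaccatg

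The windows are unlike each other in composition. The Obp2a window held 2 CpG dinucleotides, at the 14.1 percentile of the 32851 mouse promoters in the RefSeq table, and 54% G and C. The Bmyc window held 29 CpG dinucleotides, at the 87.1 percentile, and 63.3% G and C, where the median promoter held 7 CpG and 52.7%. Both strands were searched for 5 motifs, none of which contains another. They were the core promoter box TATAAA, the nuclear receptor half-site AGGTCA, the E-box CACGTG that Myc bound to Max recognises, the box CCAAT of many promoters and the box GGGCGG bound by Sp1. The Obp2a window matched TATAAA, starting at position -61 from the start site, and AGGTCA on the minus strand, read as TGACCT on the printed strand and starting at -17. The Bmyc window matched none of the 5, which says only that these letters are not in it. Of all promoters of the same length, 13.6% held TATAAA, 16.3% AGGTCA, 7.15% CACGTG, 37.4% CCAAT and 35.7% GGGCGG.

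The deposited intensities were on a linear scale with the same trimmed mean on every array, 100.001 with 2% of probe sets left off at each end. The median signal was 19.7 to 25.9 on the arrays at 14 weeks and 12.6 to 16.1 at 5 weeks, so low signals are not on the same footing at the 2 ages. Xist gave 13.4 to 44.5 at 14 weeks and 948 to 2169 at 5 weeks, and the Y-linked Eif2s3y gave 245 to 344 at 14 weeks and 0.350 to 6.59 at 5 weeks, in Trim24-/- and WT arrays alike. Age therefore cannot be told apart from sex in any comparison between the ages. Groups were not cleanly separated over all genes: 7 of the 22 arrays, among them all 4 WT arrays at 5 weeks, had their closest array in another group. The Trim24-/- mouse 6 and the WT mouse 90 were closest to each other (r = 0.979 over genes) and had the lowest mean correlation with their own groups at 5 weeks, and results that rest on them are given without them as well. The hepatocyte markers Alb and Ttr were bright in every group, with group means of 8090 to 11394 for Alb and 9518 to 11115 for Ttr. Trim24 itself gave 450.4 ± 34.1 in Trim24-/- Rara+/- livers, 363 ± 84.7 in Trim24-/- livers and 317 ± 111 in WT livers at 5 weeks (SD, n = 4 each), and 235 ± 59.3 in Trim24-/- livers and 168 ± 24.2 in WT livers at 14 weeks (SD, n = 5 each). Where its probes lie relative to the disruption is not known here, and this signal checks no label. Rara gave 18.2 ± 9.97 in Trim24-/- Rara+/- livers, 13.7 ± 8.45 in Trim24-/- livers and 12.3 ± 11.7 in WT livers at 5 weeks (SD, n = 4 each), and 40.7 ± 13.6 in Trim24-/- livers and 46.8 ± 10.3 in WT livers at 14 weeks (SD, n = 5 each). It was thus not lower in the livers labelled Rara+/-, at a signal so near the bottom of the scale that it checks no label.

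Obp2a was the lipocalin of the pair and showed the wider separation. In Trim24-/- Rara+/- livers at 5 weeks its signal was 507, 596, 1488 and 399.7 in mice 54, 66, 73 and 82. In Trim24-/- livers at 5 weeks it was 465.6, 5285, 686 and 257 in mice 1, 6, 8 and 37. In WT livers at 5 weeks it was 5.57, 9.29, 13.1 and 8.63 in mice 2, 44, 45 and 90. Neither mutant group overlapped WT: the lowest Trim24-/- Rara+/- liver was 30.5-fold above the highest WT liver, and the lowest Trim24-/- liver was 19.6-fold above it. Mouse 6 stood well above the other Trim24-/- livers, and mouse 73 above the other Trim24-/- Rara+/- livers.

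At 14 weeks Obp2a gave 4606, 3583, 3908, 3689 and 3166 in the 5 Trim24-/- livers. In the 5 WT livers it gave 16.8, 229, 53.7, 86.9 and 83.7. The groups did not overlap, with the lowest Trim24-/- liver 13.8-fold above the highest WT liver. The 5 Trim24-/- livers lay close together, with a coefficient of variation of 14.0%, against 85.6% among the 5 WT livers at 14 weeks. At 5 weeks it was 66.9% in Trim24-/- Rara+/-, 144% in Trim24-/- and 33.9% in WT livers. Mice 73 and 6 carried much of that spread: without mouse 73 it was 19.6% in Trim24-/- Rara+/- livers, and without mouse 6 it was 45.7% in Trim24-/- livers.

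Bmyc differed from WT by less than Obp2a did. Its signal in Trim24-/- Rara+/- livers at 5 weeks was 156, 196, 263 and 109 in mice 54, 66, 73 and 82. In Trim24-/- livers at 5 weeks it was 102, 375, 146 and 134 in mice 1, 6, 8 and 37. In WT livers at 5 weeks it was 14.5, 31.7, 15.96 and 31.8 in mice 2, 44, 45 and 90. Again neither mutant group overlapped WT, and mice 6 and 73 again had the highest value of their groups.

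At 14 weeks, with the mice in the same order as for Obp2a, Bmyc gave 447, 281, 368, 277 and 192 in the Trim24-/- livers. In the WT livers it gave 62.0, 156, 108, 127 and 86.8. The groups did not overlap, but the gap was narrow: the lowest Trim24-/- liver was 1.23-fold above the highest WT liver.

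**Figure D1:**
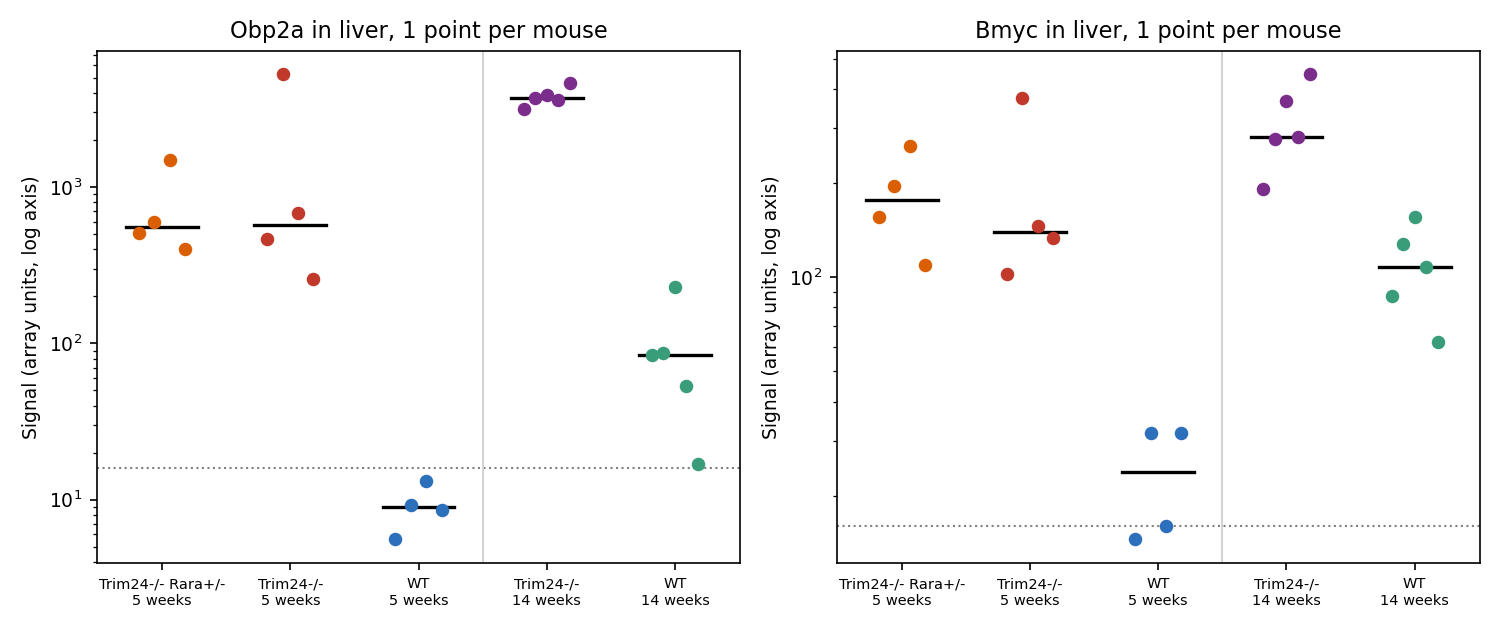
Signal of Obp2a (left) and Bmyc (right) in array units on a log axis, 1 point per mouse, with a black line at each group's median and a dotted line at the pseudocount of 16. All 13 livers without Trim24 lie above all 9 WT livers for Obp2a, and for Bmyc 8 of the 13 lie above every WT liver.

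Averaged over mice, Obp2a was 748 ± 500.1 in Trim24-/- Rara+/- livers and 1674 ± 2414 in Trim24-/- livers, against 9.15 ± 3.10 in WT livers at 5 weeks (SD, n = 4 each). At 14 weeks it was 3790.4 ± 529.8 in Trim24-/- livers and 94.0 ± 80.4 in WT livers (SD, n = 5 each). On the log2(signal + 16) scale, on which all differences below are given and which understates changes of dim genes, Obp2a was higher by 4.74 in Trim24-/- Rara+/- livers and by 5.06 in Trim24-/- livers than in WT livers at 5 weeks, and by 5.40 in Trim24-/- livers than in WT livers at 14 weeks. Without mouse 6 and the WT mouse 90 the difference for Trim24-/- at 5 weeks was 4.17. Of the 9 WT livers, 4 had an Obp2a signal under 16, so the size of the ratio to WT rests on values near the bottom of the scale. In bulk liver a change in the number of cells that express a gene and a change in RNA per cell cannot be told apart.

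Bmyc averaged 181 ± 65.3 in Trim24-/- Rara+/- livers and 189 ± 126 in Trim24-/- livers, against 23.5 ± 9.58 in WT livers at 5 weeks (SD, n = 4 each). At 14 weeks it averaged 313 ± 97.3 in Trim24-/- livers and 108 ± 36.2 in WT livers (SD, n = 5 each). The log2 differences were 2.29 for Trim24-/- Rara+/- and 2.24 for Trim24-/- against WT at 5 weeks, and 1.41 for Trim24-/- against WT at 14 weeks. Without mouse 6 and the WT mouse 90 the Trim24-/- difference at 5 weeks was 1.98.

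Among all 18194 genes ranked by their rise against WT, Obp2a was the second in Trim24-/- Rara+/- livers, the first in Trim24-/- livers at 5 weeks and the second in Trim24-/- livers at 14 weeks. Bmyc held places 10, 12 and 23 in the same 3 comparisons. A gene was called where limma's Benjamini-Hochberg adjusted p over all genes was under 0.05. Both members were called higher in all 3, which the choice of members fixed, where 0.0495% of genes were called higher in Trim24-/- Rara+/- livers, 0.478% in Trim24-/- livers at 5 weeks and 0.181% in Trim24-/- livers at 14 weeks. Groups that did not overlap in the upward direction were found for 1.98%, 2.98% and 1.07% of genes in those 3 comparisons. The 2 comparisons at 5 weeks share the same 4 WT livers.

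Only 6 genes were called higher in all 3 comparisons: Bmyc, Obp2a, Cfap53, Cyp2u1, Cyp4v3 and Mbd1. As a description of where the choice fell, the largest of the 3 adjusted p-values placed Obp2a and Cyp2u1 (0.0341 each) and Bmyc (0.0379) just inside that threshold, and Gabra3 (0.0728) and Rpp40 (0.0883) just outside it, the last 2 named for that place alone. For 9 genes every one of the 13 mutant livers lay above every one of the 9 WT livers. Obp2a was among those 9 and Bmyc was not.

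By mean signal, the order of the groups for Obp2a was Trim24-/- at 14 weeks, Trim24-/- at 5 weeks, Trim24-/- Rara+/- at 5 weeks, WT at 14 weeks and WT at 5 weeks. The first place overlapped the next only through mouse 6, and the values of Trim24-/- and Trim24-/- Rara+/- livers at 5 weeks overlapped throughout. By mean signal the order for Bmyc was the same, but by median the Trim24-/- Rara+/- livers (176) stood above the Trim24-/- livers (139.6) at 5 weeks. There the 3 mutant groups overlapped each other, and the Trim24-/- Rara+/- and Trim24-/- livers at 5 weeks also overlapped the WT livers at 14 weeks.

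The loss of 1 Rara allele on top of Trim24 was a comparison that the choice of members did not use, although the livers of both groups entered the choice. Obp2a differed by -0.32 ± 0.71 (SE) in Trim24-/- Rara+/- livers relative to Trim24-/- livers, with a 95% interval of -1.85 to 1.21 (limma, adjusted p = 0.919; exact permutation test over 70 splits, two-sided, p = 0.8). Bmyc differed by 0.05 ± 0.34 (SE), with an interval of -0.69 to 0.79 (limma, adjusted p = 0.984; exact permutation test, two-sided, p = 0.886). Neither member was called, where 0.143% of all genes were. The intervals still hold changes of more than a unit in either direction for Obp2a, and the Obp2a estimate turned to 0.56 without mouse 6 and the WT mouse 90.

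Bmyc and Obp2a also differed between WT livers of the 2 ages. The WT livers were the reference in the comparisons that chose the members, so they entered the choice too. A choice of genes raised against WT can favour genes low in WT livers, so the p-values here are not free of that choice. Obp2a was higher by 1.84 ± 0.60 (SE, 95% interval 0.59 to 3.09) in WT livers at 14 weeks than in WT livers at 5 weeks, with an adjusted p of 0.0261 by limma and an exact two-sided permutation p of 0.0159. Bmyc was higher by 1.63 ± 0.31 (SE, 95% interval 0.99 to 2.27), with an adjusted p of 6.25e-04 by limma and an exact two-sided permutation p of 0.00794 over 126 splits. Of all genes, 19.7% were called higher in this comparison, and for 13.1% the WT groups did not overlap in the upward direction, as they did not for either member. The median of all genes was itself higher by 0.13, and it was 0.00 after quantile normalization. Relative to that median the rise was 1.71 for Obp2a and 1.50 for Bmyc. The Obp2a call was lost under quantile normalization (adjusted p = 0.0651) and when single mice were left out: the limma adjusted p was 0.0769 without the 14-week mouse with the highest Obp2a signal (229), and 0.0598, 0.0506 and 0.0513 without the 5-week mice 2, 44 and 90. The Bmyc call was kept in each of these settings. Age and sex cannot be told apart in this comparison.

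The size of the difference between Trim24-/- and WT livers was then set side by side for the ages. Both differences entered the choice of the members, which were taken because they were raised at both ages, so the values are a description with no test. For Obp2a the difference at 14 weeks minus that at 5 weeks was 0.34 ± 0.85 (SE of the interaction fit). For Bmyc it was -0.84 ± 0.44 (SE). In Bmyc the smaller difference at 14 weeks stood beside a WT mean of 108, which was 4.60 times the WT mean at 5 weeks. The Obp2a WT mean of 94.0 at 14 weeks was 10.3 times that at 5 weeks. In ratios of mean signal, Obp2a in Trim24-/- livers was 183 times WT at 5 weeks and 40.3 times WT at 14 weeks. With a pseudocount of 1 the Obp2a value turned to -0.63, so its sign depends on the scale.

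Obp2a and Bmyc varied together from mouse to mouse. Over the 13 livers without Trim24, after each group's mean was subtracted, Pearson's r between their log2 values was 0.847 (exact permutation within groups, two-sided, p = 0.00247, adjusted p = 0.00371) and Spearman's rho was 0.896 (exact permutation p = 2.31e-04, adjusted p = 7.50e-04). The adjustment covers a family of 12 coefficients. In 12 of the 13 livers both genes lay on the same side of their group's mean. Mouse 6 raised both means of its group, and mice 1, 8 and 37 of that group lay below both, so this count leans on mouse 6. Without mice 6 and 37, the livers farthest from the median for Obp2a, r was 0.844 with the group means kept as they were (exact permutation p = 3.47e-04). It was 0.815 with the group means computed anew. Without mouse 6 alone, with the group mean computed anew, r was 0.663 (exact permutation p = 0.0199).

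The groups did not contribute equally to that coefficient. In the Trim24-/- Rara+/- group all 4 mice stood in the same order for both genes. In the Trim24-/- groups, 2 of 4 mice at 5 weeks and 3 of 5 at 14 weeks held the same place for both. Mouse 6 deviated from its group's mean by 2.66 for Obp2a and 1.10 for Bmyc, and mouse 73 by 1.17 and 0.56. Over the 8 mutant livers at 5 weeks r was 0.917 (exact permutation p = 0.0122, adjusted p = 0.0146). Without mice 6 and 73, with the group means kept as they were, it was 0.477 (exact permutation p = 0.194), so at 5 weeks the relation rests on those livers. The 14-week Trim24-/- group has 5 livers, under the 6 taken as the least for a coefficient of its own: the liver with the highest signal (4606 for Obp2a, 447 for Bmyc) and that with the lowest (3166 and 192) were the same for both genes.

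Among the 9 WT livers the relation was less firm. After group means were removed r was 0.732 (exact permutation p = 0.0424, adjusted p = 0.0462) and rho was 0.500 (exact permutation p = 0.218). Without the lowest and the highest WT livers at 14 weeks (Obp2a signals of 16.8 and 229), which were the same livers for both genes, r was 0.03 with the group means kept as they were (exact permutation p = 0.847), so it rests on them. In 5 of the 9 livers both genes lay on the same side of the group's mean.

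**Figure D2:**
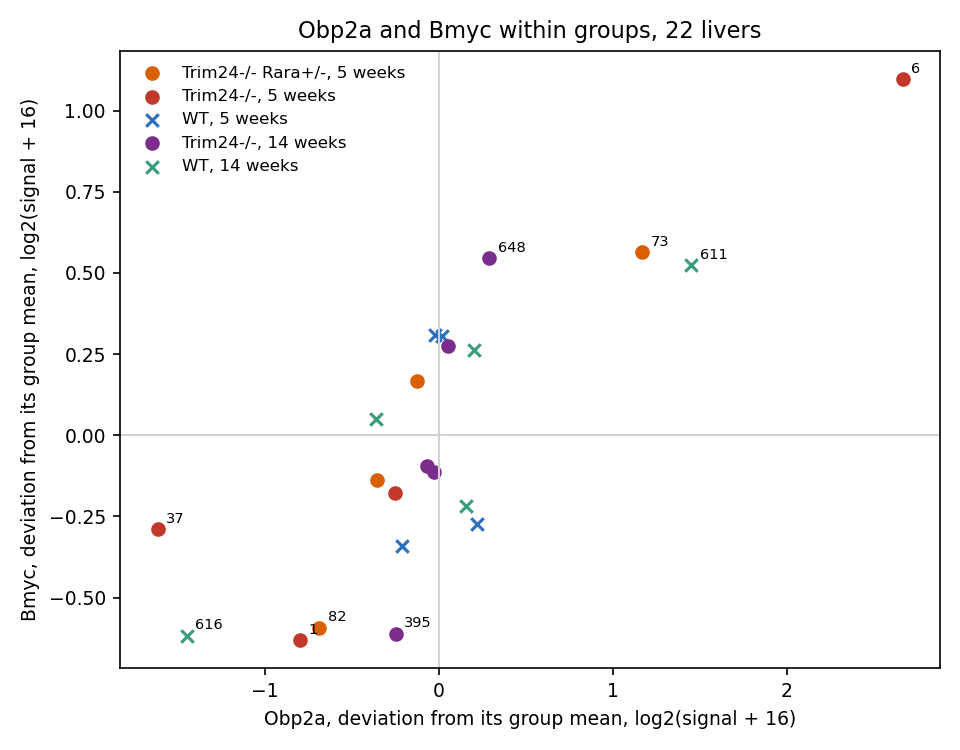
Deviation of each liver from its group's mean in log2(signal + 16), Obp2a on the horizontal axis and Bmyc on the vertical axis. Circles are the 13 livers without Trim24 and crosses the 9 WT livers, and the numbers name the mice that lie farthest out. Most circles run from the lower left to the upper right (r = 0.847), with mouse 6 alone at the upper end.

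Several properties of the arrays were set beside the pair over the same 13 centred livers. The log2 median signal of the array had r = 0.25 with Obp2a and -0.10 with Bmyc. Of the mean log2 levels of the marker lists, pancreatic acinar had r = -0.43 with Obp2a and -0.31 with Bmyc, and hepatocyte -0.39 and -0.17. Lymphocyte markers had r = 0.28 with Obp2a and 0.06 with Bmyc, stellate markers -0.02 and 0.36, and Kupffer cell and macrophage markers 0.15 and 0.20. Cholangiocyte markers had r = -0.18 and 0.11, and endothelial markers -0.02 and 0.17. The part of these properties in the joint variation was not tested.

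Likeness to each member was ranked among the 8334 genes with a mean log2(signal + 16) of at least 6, as a description. Over all 22 arrays the gene most like Obp2a was Bmyc (r = 0.930), followed by the cilia-associated Cfap53 (0.911), the zinc finger gene Zfp445 (0.907), the retroelement silencing factor Resf1 (0.905) and the translation factor assembly gene Cdc123 (0.903). The gene most like Bmyc was Obp2a, followed by Zfp445 (0.906), the purine transporter Slc43a3 (0.904), Tmem19 (0.858) and the oxysterol hydroxylase Cyp7b1 (0.854). These 22 arrays span the groups that chose the members, so shared group means enter each value.

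Inside the 3 mutant groups, over 13 centred livers, the order changed. The genes most like Obp2a there were the complement gene C8a (r = 0.917), the phospholipid flippase Atp8b1 (0.903), the kinase Sgk1 (0.899), the topoisomerase Top2b (0.883) and the vesicle tethering gene Uso1 (0.878). Those most like Bmyc were the ubiquitin-conjugating enzyme Ube2n (0.906), Sgk1 (0.893), the histone methyltransferase Kmt2d (0.890), Brwd1 (0.887) and Iqsec1 (0.869). Bmyc stood at place 12 of 8333 for Obp2a, and Obp2a at place 8 of 8333 for Bmyc. For comparison, from the 5th to the 95th percentile of these genes r ran from -0.64 to 0.57 with Obp2a and from -0.57 to 0.52 with Bmyc.

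None of the genes measured around the pair was called. The 20 nearest measured genes, 10 on each side, were compared in the same fits, and limma called 0 of them in any of the comparisons of Trim24-/- Rara+/- with WT, Trim24-/- with WT at 5 weeks, Trim24-/- Rara+/- with Trim24-/-, and Trim24-/- with WT at 14 weeks, where 0.055%, 0.599%, 0.143% and 0.242% of all genes were called in either direction. An unadjusted p under 0.05 was found for 0, 0, 0 and 2 of the 20, the 2 being Fcna and Phpt1, where 7.46%, 10.9%, 11.4% and 8.23% of all genes had one. Their differences ran from -0.38 to 0.37 (median -0.02), from -0.42 to 0.24 (median -0.03), from -0.31 to 0.26 (median -0.01) and from -0.40 to 0.41 (median 0.04). The median over all genes was -0.02, -0.01, -0.01 and 0.00 in those comparisons. Only 9 of the 20 had a mean log2 value of at least 6, so for the dim ones a change could be missed.

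The nearest measured genes on the Obp2a side were the lipocalin genes Lcn5 and Lcn8 and the ficolin gene Fcna, which encodes a lectin of innate immunity. Lcn5 averaged 1.11 ± 0.527 in Trim24-/- Rara+/- livers, 1.33 ± 0.468 in Trim24-/- livers and 1.54 ± 0.990 in WT livers at 5 weeks (SD, n = 4 each), and 7.94 ± 6.36 in Trim24-/- livers and 9.74 ± 7.65 in WT livers at 14 weeks (SD, n = 5 each). Lcn8 averaged between 3.10 and 7.49 in the 5-week groups and 23.4 ± 4.21 in Trim24-/- livers and 23.6 ± 11.4 in WT livers at 14 weeks (SD, n = 5 each). Both were thus at the bottom of the scale at 5 weeks.

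Fcna averaged 439.7 ± 179 in Trim24-/- Rara+/- livers, 426 ± 128 in Trim24-/- livers and 407 ± 76.5 in WT livers at 5 weeks (SD, n = 4 each). At 14 weeks it averaged 673 ± 37.5 in Trim24-/- livers and 504 ± 47.4 in WT livers (SD, n = 5 each), and these groups did not overlap, as was so for 1.78% of all genes in either direction. The difference of 0.41 ± 0.10 (SE) did not pass limma's test (adjusted p = 0.188). Phpt1, a histidine phosphatase gene named after its values were seen, averaged 292 ± 35.8 in Trim24-/- livers and 392.96 ± 71.8 in WT livers at 14 weeks (SD, n = 5 each), a difference of -0.40 ± 0.14 (SE; limma, adjusted p = 0.425).

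On the Bmyc side the nearest measured genes were the lipocalin genes Lcn3 and Lcn11 and the glycosyltransferase-like gene Glt6d1. Their group means lay between 3.37 and 10.5 for Lcn3, between 3.40 and 13.2 for Lcn11 and between 2.20 and 8.25 for Glt6d1, and in each comparison their groups overlapped. Lcn15, Lcn6, Lcn10 and Obp2b lie within the stretch from Fcna to Glt6d1 and were not analysed here. Whether these close neighbours of the pair changed is therefore not known. Within the 13 centred mutant livers, the 9 brighter flanking genes had r of -0.65 to 0.88 with Obp2a (median 0.27) and of -0.69 to 0.82 with Bmyc (median 0.21). The highest of each was Tmem141, singled out after its values were seen, with r = 0.876 with Obp2a and 0.822 with Bmyc. Its own level differed by 0.37 ± 0.23 in Trim24-/- Rara+/- livers, 0.11 ± 0.23 in Trim24-/- livers at 5 weeks and 0.26 ± 0.13 in Trim24-/- livers at 14 weeks relative to WT (SE; limma, adjusted p = 0.791, 0.919 and 0.652).

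**Figure D3:**
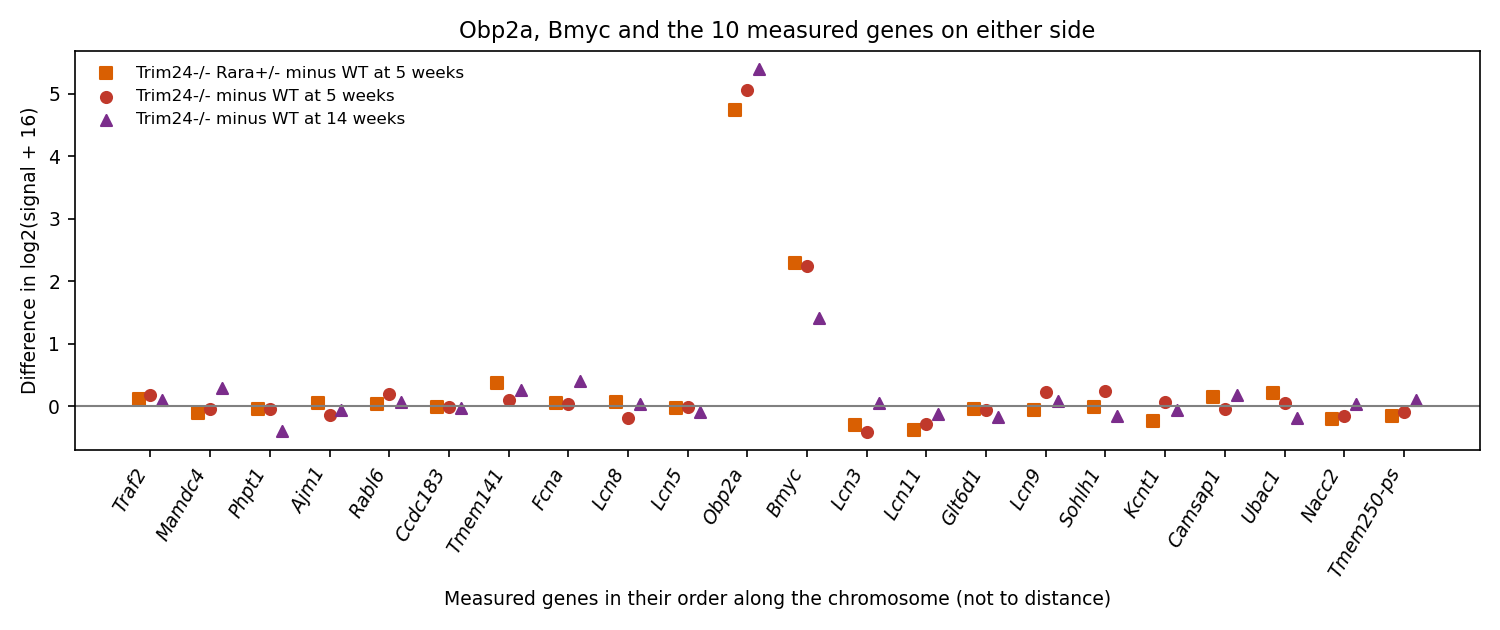
Difference in log2(signal + 16) from WT for Obp2a, Bmyc and the 10 measured genes on either side, in their order along the chromosome and not to distance, with squares for Trim24-/- Rara+/- at 5 weeks, circles for Trim24-/- at 5 weeks and triangles for Trim24-/- at 14 weeks. The pair, which these comparisons had chosen, lies between 1.41 and 5.40 while the 20 other genes lie between -0.42 and 0.41.

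The Myc network, of which Bmyc is a partial relative, was then counted over 19 measured genes. They are Myc and its paralogues, the shared dimerisation partner Max, the Mxd, Mnt and Mga genes that compete for Max, the Mlx branch and Myc cofactors. Bmyc was the only one of the 19 called in each of the 3 comparisons with WT, on contrasts that had chosen it, and limma called 0 in Trim24-/- Rara+/- against Trim24-/- livers, where 0 also had an unadjusted p under 0.05. Without Bmyc, 18 genes were left: limma called 0 in Trim24-/- Rara+/- against WT, in Trim24-/- against WT at 5 weeks and in Trim24-/- against WT at 14 weeks, and 2, 1 and 0 had an unadjusted p under 0.05, beside 7.46%, 10.9% and 8.23% of all genes. The median difference of these 18 was 0.04, 0.04 and -0.03, beside -0.02, -0.01 and 0.00 for all genes. For 1, 2 and 0 of the 18 the groups did not overlap, each time upward, beside 1.98%, 2.98% and 1.07% of all genes in that direction. Mga, named after its values were seen, was among them in both comparisons at 5 weeks, with differences of 0.52 and 0.48 (limma, adjusted p = 0.362 and 0.232). With 1 liver left out at a time, the Bmyc call was lost in 7 of 8 cases for Trim24-/- Rara+/- against WT, in 2 of 8 for Trim24-/- against WT at 5 weeks (Trim24-/- mouse 8 or WT mouse 45 left out) and in 8 of 10 at 14 weeks.

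Myc itself, the transcription factor of the family, is the gene whose amino-terminal part Bmyc resembles. It averaged 44.3 ± 19.2 in Trim24-/- Rara+/- livers, 71.2 ± 30.1 in Trim24-/- livers and 58.5 ± 43.0 in WT livers at 5 weeks (SD, n = 4 each). At 14 weeks it averaged 101 ± 53.9 in Trim24-/- livers and 59.0 ± 44.03 in WT livers (SD, n = 5 each). Its differences from WT of -0.20 ± 0.37, 0.30 ± 0.37 and 0.69 ± 0.37 (SE) did not pass limma's test (adjusted p = 0.940, 0.831 and 0.677), and its groups overlapped throughout. Myc was named after its values were seen.

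Genes of ribosome production and growth that Myc is known to drive, such as nucleolin and fibrillarin, were counted next. Of 26 measured, limma called 0 in each of the comparisons of Trim24-/- Rara+/- with WT, Trim24-/- with WT at 5 weeks, Trim24-/- Rara+/- with Trim24-/-, and Trim24-/- with WT at 14 weeks, while 1, 2, 4 and 4 had an unadjusted p under 0.05, beside the 7.46%, 10.9%, 11.4% and 8.23% of all genes that did. Their median difference was -0.09, -0.06, -0.12 and 0.19. At 14 weeks 23 of the 26 estimates were above 0, beside a median of 0.00 for all genes, but no single gene passed the test. In the comparisons at 5 weeks, in the order given above, 9, 11 and 10 of the 26 were above 0.

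The lipocalin family, to which Obp2a belongs, had 20 measured genes. Obp2a was the only one called in each comparison with WT, again on contrasts that had chosen it. With 1 liver left out at a time that call was lost in 8 of 8 cases for Trim24-/- Rara+/- against WT, in 1 of 8 for Trim24-/- against WT at 5 weeks (WT mouse 45 left out) and in 0 of 10 at 14 weeks. Without it, 19 genes were left, and limma called 0 in Trim24-/- Rara+/- against WT, Trim24-/- against WT at 5 weeks, Trim24-/- Rara+/- against Trim24-/- and Trim24-/- against WT at 14 weeks. An unadjusted p under 0.05 was found for 2, 2, 1 and 2 of the 19, beside 7.46%, 10.9%, 11.4% and 8.23% of all genes, of which 0.055%, 0.599%, 0.143% and 0.242% were called. Their median difference was -0.07, -0.13, 0.00 and -0.07. Cross-reaction of probes between close relatives, such as Obp2a with Obp2b or Bmyc with Myc, was not tested.

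**Figure D4:**
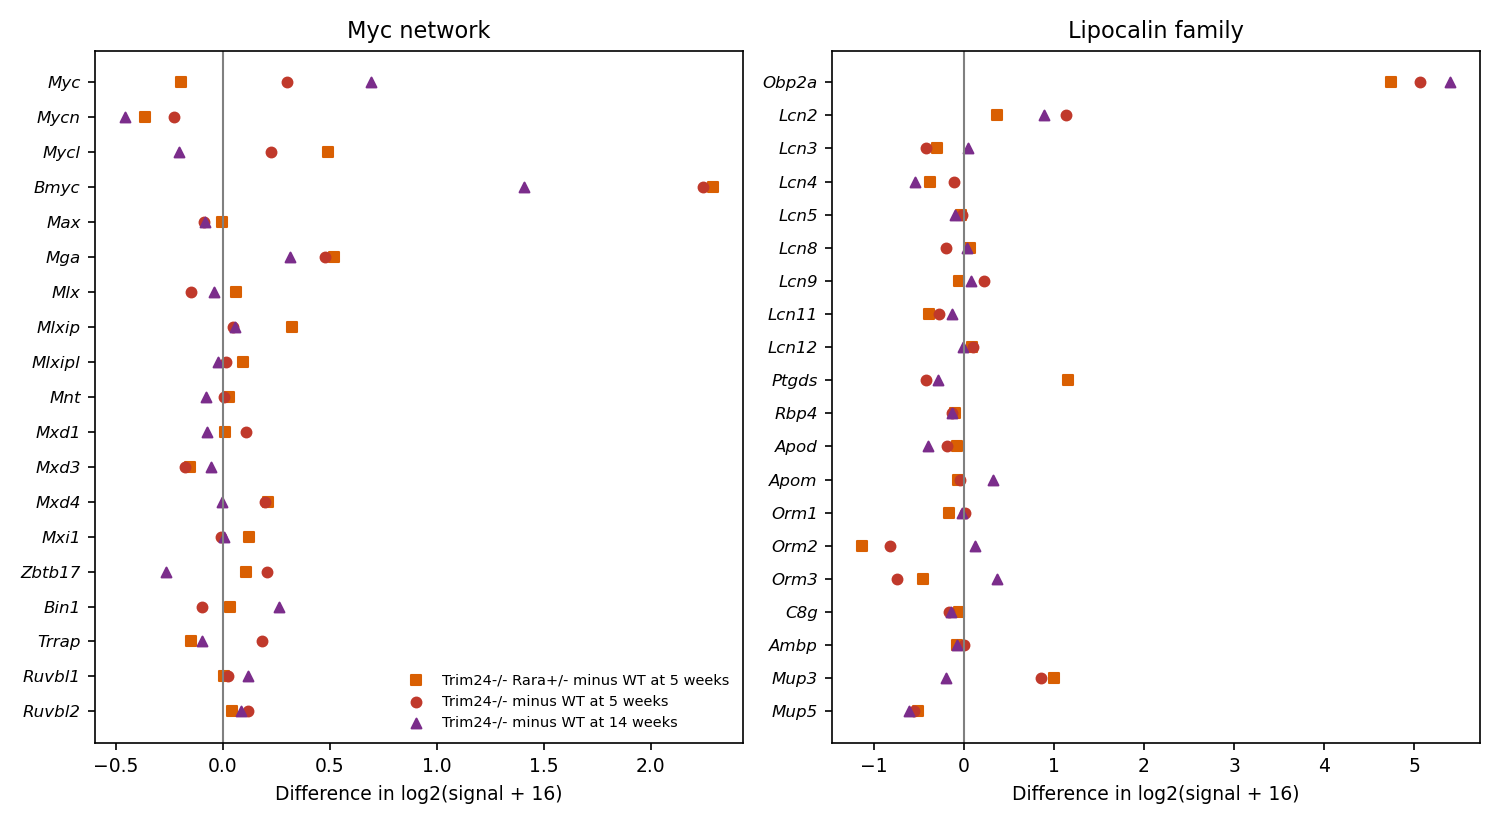
Difference in log2(signal + 16) from WT for the 19 genes of the Myc network (left) and the 20 measured lipocalin genes (right), with squares for Trim24-/- Rara+/- at 5 weeks, circles for Trim24-/- at 5 weeks and triangles for Trim24-/- at 14 weeks. Bmyc and Obp2a lie to the right of every other gene of their families in each of the 3 comparisons, which had chosen them.

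Markers of other cells were summed per array beside the pair. The 7 Kupffer cell and macrophage markers summed to 3295 to 5018 in Trim24-/- Rara+/- livers, 3250.2 to 6529 in Trim24-/- livers and 2684 to 5137 in WT livers at 5 weeks, and to 2548 to 4521 in Trim24-/- livers and 2114 to 2879 in WT livers at 14 weeks. Of these 7, limma called only Mpeg1, a pore-forming macrophage protein, higher in Trim24-/- livers at 5 weeks (1.69 ± 0.30, SE, adjusted p = 0.0269). It called 0 in the other comparisons with WT. In Trim24-/- Rara+/- livers, Trim24-/- livers at 5 weeks and Trim24-/- livers at 14 weeks, 1, 3 and 5 of the 7 had an unadjusted p under 0.05. Of all genes, 7.46%, 10.9% and 8.23% had one in those comparisons, and 0.055%, 0.599% and 0.242% were called. The 5 stellate markers summed to 2404 to 2707 in Trim24-/- Rara+/- livers, 1748 to 2915 in Trim24-/- livers and 1919 to 2592 in WT livers at 5 weeks, and to 2500.4 to 3022 in Trim24-/- livers and 1915 to 2681 in WT livers at 14 weeks. The 4 measured lymphocyte markers summed to 29.5 to 55.2 in Trim24-/- Rara+/- livers, 41.2 to 81.9 in Trim24-/- livers and 14.3 to 57.1 in WT livers at 5 weeks, and to 62.9 to 90.6 in Trim24-/- livers and 45.6 to 102 in WT livers at 14 weeks. The 7 hepatocyte, 5 endothelial and 4 measured cholangiocyte markers had sums that overlapped between every mutant group and WT of its age. Limma called 0 markers of the stellate, lymphocyte, hepatocyte, endothelial, cholangiocyte and acinar lists in the comparisons with WT. Of the first 2 lists, an unadjusted p under 0.05 was found for Lrat in Trim24-/- Rara+/- livers, for Col1a1 and Nkg7 in Trim24-/- livers at 5 weeks, and for Des and Dcn in Trim24-/- livers at 14 weeks. Of the other lists, it was found for Epcam (-0.49), Krt7 (0.48) and Tat (-0.65) in those 3 comparisons in turn. Cela1 had it in each, with differences of 1.21, 1.14 and 0.89 (limma, adjusted p = 0.142, 0.0763 and 0.208). All these markers were named after their values were seen. The 3 measured pancreatic acinar markers summed to 444 to 717 in Trim24-/- Rara+/- livers, 378 to 763 in Trim24-/- livers and 186 to 351 in WT livers at 5 weeks, and to 604 to 837 in Trim24-/- livers and 213 to 644 in WT livers at 14 weeks. At 5 weeks both mutant groups lay above WT in that sum, and at 14 weeks the groups overlapped. The sum was carried by the elastase gene Cela1, while Cpa1 was at most 3.43 and Prss2 at most 39.9 on any array. The part of these markers in the levels of Obp2a and Bmyc was not tested.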

How the data were processed

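Total RNA from 22 mouse livers was amplified in 2 rounds, labelled with biotin and hybridised to Affymetrix arrays, per the labels' protocols. The deposited intensity values are linear signals of 45101 probe sets, scaled by the authors to 1 trimmed mean on every array, as the values show; the processing software was not given in the sources used here, nor were detection calls. Probe sets were named from the platform annotation: 34958 had 1 symbol, 932 had several and 9211 were not listed, and those without exactly 1 symbol were left out. Each gene was represented by its brightest probe set by mean signal, which left 18194 genes, 9012 of them with several probe sets. RefSeq (GRCm38.p6), matched by Entrez number for 18032 genes, gave neighbour order and promoters.

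Values were taken as log2(signal + 16) and compared with limma 3.58.1 in R 4.3.3 (data.table version 1.17.8), with Benjamini-Hochberg adjustment over all genes. The 12 arrays at 5 weeks shared 1 fit, the 10 at 14 weeks another, and all 22 were used for the interaction and for WT ages. Groups came from the sample titles, and replicates are mice; the p-values measure the spread between these mice. Arrays were limited in number, which limits precision. The rule for named genes took the members, Trim24, Rara, the 3 nearest measured genes on each side, genes called in the lists and the 5 most alike. All other genes named, among them Gabra3, Rpp40, Tmem141, Phpt1, Myc, the sex-linked genes, the genes called in all 3 comparisons and single cell type markers, were picked after their values were seen. The members and all lists were chosen with earlier results of these data known. Alternatives were quantile normalization, pseudocounts of 1 and 64, only genes above the median level, the mean of all probe sets, fits with more or fewer arrays, and leaving out or averaging arrays.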

Additional observations from a re-analysis of the deposited data

Results flagged for a closer look

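The Trim24-/- mouse 6 at 5 weeks was far from the other 3 livers of its group for both genes. Its Obp2a signal was 5285 and its Bmyc signal was 375, and for each gene its gap to the next liver, divided by the range of the group, was above Dixon's 95% critical value for 4 samples. These were 2 of 20 checks, over the pair of genes, 5 groups and both scales, and chance flags about 1 in 20. On the log2(signal + 16) scale 0 of 10 checks were beyond the critical value. The array closest to that of this mouse was that of the WT mouse 90, and 7 of the 22 arrays had their closest array in another group. The WT mouse 90 had an Obp2a signal of 8.63 and a Bmyc signal of 31.8.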

How the results depend on the processing

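Of the 131 alternatives run for Obp2a, the pair's correlation included, and 110 for Bmyc, 116 and 100 kept direction and call or, where nothing was tested, moved by less than the spread between mice. Differences from WT moved with the pseudocount and kept their sign: with 64 Obp2a gave 3.30 in Trim24-/- Rara+/- and 3.64 in Trim24-/- livers at 5 weeks and Bmyc 1.45 and 1.43, and with 1 Obp2a gave 6.06 in Trim24-/- Rara+/- livers and Bmyc 2.91 and 2.85. Against Trim24-/-, Trim24-/- Rara+/- turned to 0.56 for Obp2a without mouse 6 and WT mouse 90, and to 0.067 with mice 54, 66 and 82 averaged; for Bmyc it turned to -0.087 with mice 1 and 8 averaged. The Obp2a interaction was -0.63 with a pseudocount of 1. The Obp2a difference between WT ages was 1.66 (adjusted p = 0.0651) after quantile normalization and 0.98 (adjusted p = 0.193) with a pseudocount of 64. With single mice left out, Obp2a ranged over 4.35 to 4.97 (Trim24-/- Rara+/- against WT), 4.18 to 5.60 (Trim24-/- against WT at 5 weeks), 5.04 to 5.76 (at 14 weeks), -0.86 to 0.56 (Trim24-/- Rara+/- against Trim24-/-), -0.20 to 1.22 (interaction) and 1.48 to 2.20 (WT ages). Bmyc ranged over 2.10 to 2.49, 1.88 to 2.45, 1.25 to 1.56, -0.16 to 0.41, -1.05 to -0.47 and 1.50 to 1.79. The pair's correlation ranged from 0.663 to 0.897. The cause of these movements was not tested.

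Calls among flanking genes were 0 in every setting. The Myc network count, which is Bmyc alone, was 0 in place of 1 with a pseudocount of 64 (both 5-week comparisons with WT), a pseudocount of 1 (Trim24-/- Rara+/- against WT, and Trim24-/- against WT at 14 weeks), only the compared groups in the fit (Trim24-/- against WT at 5 weeks) and mice 54, 66 and 82 averaged (Trim24-/- Rara+/- against WT). The lipocalin count, which is Obp2a alone, was 0 with a pseudocount of 64 (both 5-week comparisons), only the compared groups (Trim24-/-) and the averaged mice (Trim24-/- Rara+/-). With single mice left out these counts ranged from 0 to 1 in each comparison with WT, except the lipocalin count of 0 in Trim24-/- Rara+/- livers with any of the 8 mice left out and of 1 at 14 weeks. Between Trim24-/- Rara+/- and Trim24-/-, the lipocalin and nucleolar counts were 1 each with all 22 arrays in the fit.

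All genes called in Trim24-/- against WT at 5 weeks (109) were 28 with a pseudocount of 1, 20 with only the compared groups and 21 with mice 1 and 8 averaged, and 12 to 143 with single mice left out. In Trim24-/- Rara+/- against WT (10) they were 19 among brighter genes, 23 with only the compared groups, 31 with all arrays, 28 without mouse 6 and WT mouse 90, 5 with mice averaged and 6 to 12 with single mice left out. In Trim24-/- Rara+/- against Trim24-/- (26) they were 103 among brighter genes and with all arrays, 0 with a pseudocount of 1 or mice 54, 66 and 82 averaged, 55 with 64, 5 with only the compared groups or mice 1 and 8 averaged, 49 without mouse 6, and 0 to 102 with single mice left out. At 14 weeks (44) they were 72 among brighter genes, 28 with a pseudocount of 1, 93 with all arrays and 28 to 40 with single mice left out. No paired analysis was possible because the numbers in the titles name single mice and no number occurs in 2 groups. Averaging mice and leaving out mouse 6 with WT mouse 90 were chosen after seeing the data. Signals near 16 or below have little order, which limits the WT values.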
